A study of Rattus norvegicus with 3 samples.

Results

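The data compare the top of the villus with the crypt in rat jejunum, gene by gene and across functions. The animals were male, of the Sprague-Dawley strain and 6 weeks old. Flattened, frozen jejunum had been cut parallel to the mucosal surface into sections of 10 µm, and 10 sections made 1 fraction of 100 µm. The top villus sample was fraction 1 from the villus tip (0 to 100 µm) and the crypt sample was fraction 6 (500 to 600 µm) of typically 7 fractions. A middle villus sample, fraction 4, is given beside the pair. Each part was 1 sample, and the labels do not say how many rats it came from. The differences therefore stand without replicates and without a test. Of 4379 named genes on the deposited table of 6653 probes, 3932 were compared, because 1 or both parts lay at or above the lowest 25% of their own column. The other 447 genes were not above that level in either part and have no value here.

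The intestinal epithelium renews itself from stem cells at the crypt base. Their daughters divide in the crypt, leave the cell cycle, move up the villus as absorptive or secretory cells, and are shed at the tip within days. Each section also holds the core beneath the epithelium, with immune cells, vessels, fibroblasts and slender muscle cells. In such bulk samples, fewer cells of a type and less RNA per cell cannot be told apart.

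Levels are the deposited log2 values, and a difference is the top villus level minus the crypt level, averaged over a gene's probes. Values by which genes are said to differ, or to be higher or lower, are on this log2 scale unless written as a fold. A gene was called higher or lower at the top villus at 2-fold or more, a log2 difference of 1. A level in the lowest 25% of its column (under 5.15 at the top villus, under 6.05 in the crypt) counted as dim. Where 1 side was dim the difference has only a lower limit, given as "at least". By this rule 939 genes, or 23.9%, were higher at the top villus and 1554, or 39.5%, were lower, so that 63.4% passed 2-fold in either direction. The median log2 difference over all 3932 was -0.39. Every list below is to be read against these shares. Some genes stand on several lists, so the counts of different lists are not separate observations. The only spread the data hold is that between probes of the same gene, whose pooled SD was 0.91 over 206 genes. A gene with 1 probe stood outside 2 such SDs at 3.55-fold. This spread covers probes only, not animals or arrays, so that fold is no threshold for a difference between the parts. Over all probes the top villus and crypt levels correlated at only 0.50, and how much of this stems from the arrays was not tested. Shares also varied with level: in the brightest 25% of genes by mean level 31.6% were higher and 32.5% lower, and in the dimmest 25% of genes 13.9% were higher and 54.2% lower. The dim level was lower at the top villus. At the same level in the other part, a gene dim there therefore passed 2-fold more easily than a gene dim in the crypt. Bounds were among 591 of the 1554 lower and 310 of the 939 higher genes. A common floor of log2 6 gave 946 higher and 1342 lower genes.

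**Figure D1:**
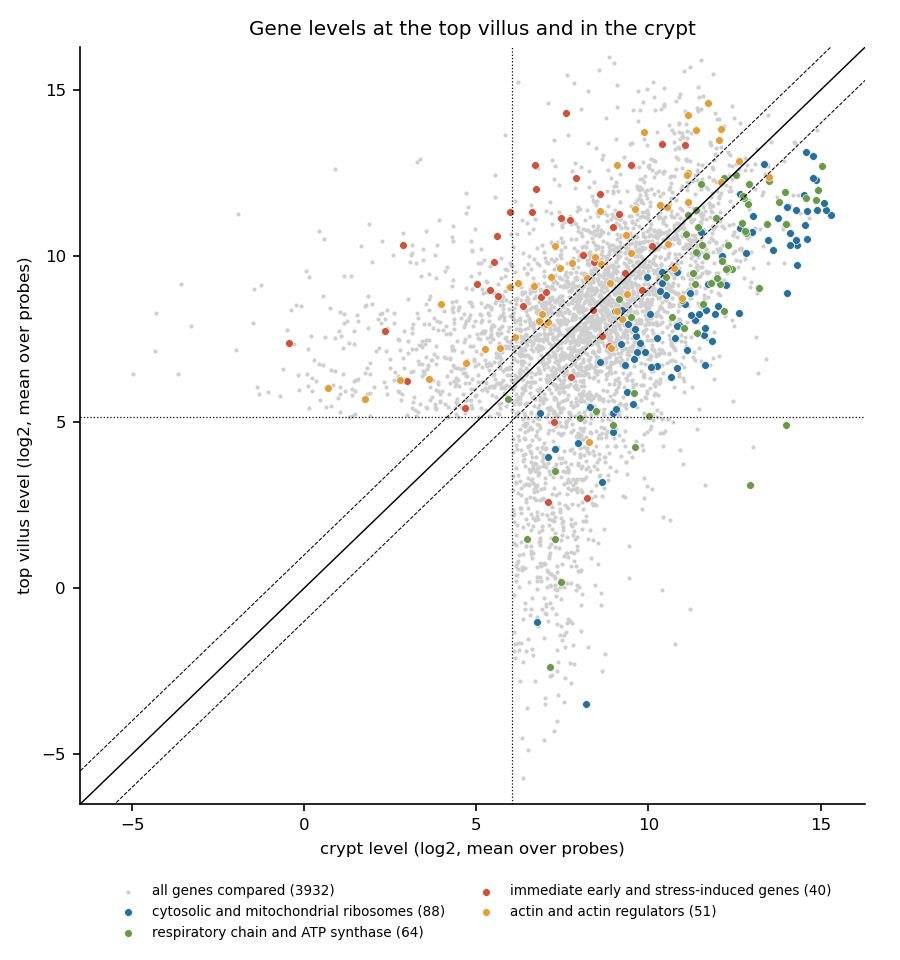
Level of each gene at the top villus (vertical axis) and in the crypt (horizontal axis), log2, 1 sample each, with 4 groups of genes coloured. Solid line, equal levels; dashed lines, 2-fold; dotted lines, the level under which a gene counted as dim in each part (5.15 at the top villus, 6.05 in the crypt). Ribosomal and respiratory chain genes lie mostly below the diagonal, and most immediate early and actin genes lie above it.

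The part names were set against markers of the cells each part should hold. Of 14 enterocyte markers 11 were higher at the top villus, and all 10 markers of proliferating and crypt base cells were lower there. The marker lists were chosen with earlier results of these data known, so these counts are no independent check of the part names. Bounds made up 3 of the 14 and 7 of the 10. A bound cannot point towards the part where the gene was dim, so its direction is no separate check of the part names. The alkaline phosphatase gene Alpi read 13.27 at the top villus and 8.48 in the crypt, with the middle villus at 11.87. Birc5, an inhibitor of apoptosis made by dividing cells, read 5.27 at the villus top, against 9.01 in the crypt, and 1.02 at mid-villus. Sucrase-isomaltase (Si) was the enterocyte marker that went the other way, at least 7.98-fold lower at the top villus, and Anpep and Dpp4 lay within 2-fold at -0.11 and 0.54. Markers of Paneth cells, which sit at the crypt base, were divided. Of 4 compared, Pla2g2a was at least 7.00-fold lower at the top villus, Reg3g was higher by 2.97, and Lyz2 and Sod3 lay within 2-fold at -0.90 and -0.16. Whether other cells contribute to Reg3g and Sod3 here was not tested. Of 3 goblet cell markers, Tff3 and Zg16 lay within 2-fold at 0.06 and 0.21, while Clca1 read lower by at least 57.4-fold.

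Markers of other cells moved with the parts too. Of 12 T and NK cell markers 7 were higher at the top villus and 1 was lower, and 8 of the 12 values are bounds. Gzma, a granule protease of cytotoxic lymphocytes, read 11.10 in the top villus sample and 6.33 in the crypt sample (middle villus, 9.77), while the receptor chain Cd3g was lower, at -3.44, and Cd3d higher, at 1.68. Of 11 macrophage, dendritic cell and MHC class II markers 7 were higher and 0 were lower. RT1-Ba and RT1-Da, which encode MHC class II chains, differed by 3.88 and 3.47, their invariant chain Cd74 by 3.11 and the complement gene C1qb by 2.19. All 4 B and plasma cell markers were lower, led by Jchain. Among 10 smooth muscle markers 1 was higher and 0 were lower, among 9 fibroblast markers 3 were higher and 2 lower, and among 8 endothelial markers 3 were higher and 0 lower. The part that these cells play in the results below was not tested.

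Genes of the cytosolic ribosome were lower at the top villus in nearly every case. Of its 48 protein genes compared, 45 were lower at the top villus and 0 were higher, with a median log2 difference of -2.94. Of these genes 40 belong to the brightest 25% of genes. Rps19, a protein of the small subunit, read 8.89 at the top villus, against 14.03 in the crypt and 11.23 in the middle villus, a 35.2-fold difference. Rps27l, a stress-linked relative of a small subunit protein, read 6.73 at the top villus and 11.66 in the crypt, with the middle villus at 10.67. Rpl10a and Rpl31, proteins of the large subunit, differed by -4.58 and -4.08. They read 9.74 and 10.52 at the top villus, 14.33 and 14.60 in the crypt and 11.12 and 11.42 in the middle villus, so that for all 4 genes the middle villus lay between the parts. The exceptions were Rpsa, Rpl10 and Rps16, within 2-fold at -0.85, -0.78 and -0.58. Ribosomal protein genes have many processed copies in mammalian genomes, and whether a probe separates them was not tested.

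Genes of ribosome assembly and of the factors that serve the ribosome were also mostly lower. Nucleolar and ribosome assembly genes were lower in 15 of 16 cases, with a median of -2.68. Npm1, the nucleolar protein nucleophosmin, read 6.96 at the villus top, against 11.30 in the crypt, and 9.48 at mid-villus, and Nop56, a core protein of the particles that methylate ribosomal RNA, differed by -3.35. The exception was Sbds, which acts late in large subunit maturation and was higher by 1.87 on the log2 scale. Of 14 genes for aminoacyl-tRNA synthetases and their partners, which load amino acids onto tRNAs, 13 were lower, with Yars1 at -3.82 and the mitochondrial Tars2 at -3.22. The arginine enzyme Rars1 was higher, at 1.13. Among 35 initiation and elongation factors 22 were lower and 2 higher (median -1.82). Eef1e1, a partner of the synthetase complex, and Eif2s1, the alpha subunit of the initiation factor that stress kinases phosphorylate, differed by -4.04 and -3.94. Eif4e3 and Eif4g3, variant forms of cap-binding factors, were the ones that were higher, at 1.31 and 1.09.

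Nuclear genes were lower in some lists. Splicing genes numbered 60, of which 38 were lower and 3 higher (median -1.40). Snrpf, 1 of the Sm ring proteins, read 6.72 in the top villus sample and 11.78 in the crypt sample (middle villus, 9.24), and Snrpc and Hnrnpa1 differed by -4.80 and -4.23. The splicing regulators Rbm38 and Srsf4 were higher, at 2.52 and 2.27. Of 26 nuclear pore and nuclear transport genes 19 were lower and 0 higher (median -1.69), among them the pore protein Nup37 at -3.78 and Ran, the GTPase that powers transport, at -3.04. Of 39 genes of RNA polymerase II, mediator and elongation 18 were lower and 1 higher. Of 19 genes of mRNA decay and binding 4 were higher and 6 lower. Zfp36, which promotes decay of AU-rich messages, was higher by 3.38 and the antiproliferative gene Btg1 by 2.26.

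Of 72 chromatin genes 33 were lower and 12 higher (median -0.62). Their lower share of 45.8% was not far from the 39.5% over all genes. In DNA repair 14 of 24 genes were lower and 2 higher (median -1.60). Bounds made up 8 of these 24 values, and the median was -0.83 over the repair genes measured in both parts. Apex1, the main nuclease that cuts DNA at abasic sites in base excision repair, read 5.38 at the top villus, against 11.47 in the crypt and 2.93 in the middle villus, a 68.2-fold difference between top villus and crypt. Another base excision gene went the other way: Mutyh, which removes adenine paired with oxidised guanine, read 11.66 at the top villus and 6.13 in the crypt, with the middle villus at 5.92. Ogg1, the glycosylase for oxidised guanine itself, differed by -2.30. Ezh1, a histone methyltransferase, was higher at 2.04 and Arid5b at 1.76, while the assembly factor Chaf1b and the variant histone H2ax were lower at -3.64 and -3.04.

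Cell cycle and replication genes were lower in 43 of 56 cases and higher in 6 (median -2.45), and 35 of these values are bounds. Spc24, a kinetochore protein, read 6.06 at the villus top, against 11.27 in the crypt, and 2.58 at mid-villus, and Cdkn3, a phosphatase of cyclin-dependent kinases, read 5.16 in the top villus sample and 10.26 in the crypt sample (middle villus, 2.07). Both were dim in the middle villus. The genes that were higher were the cycle inhibitors Cdkn2b (1.25), Cdkn1a (at least 6.79-fold) and Cdkn1c (at least 3.80-fold), the polymerase subunit Pold4 (1.74) and the phosphatases Cdc14a (1.20) and Cdc25a (1.10).

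Promoters of this list were searched for E2F sites (TTTGGCGC or TTTCGCGC, either strand), since E2F factors switch on replication genes in dividing cells. The search used RefSeq windows of the GRCr8 assembly, 250 bases before to 50 after the gene start, which matched 3298 of the 3932 genes. Such a site was present in 7 of 36 lower cell cycle genes with a window, 19.4%, and in 1 of 5 higher ones and in 2 of 5 within 2-fold, against 0.841% of all 27457 windows. The letters were chosen with the values known, and a match is a description of the sequence, not a site shown to be used. The 7 genes were Mcm2, Mcm5, Mcm6, Cdk1, Cdt1, Gins1 and Stmn1, the higher one was Cdc25a, and those within 2-fold were Rfc3 (-0.89) and Gmnn (-0.48). Mcm6, a subunit of the replicative helicase, is shown because it was measured in both parts, at 5.37 at the top villus, against 10.25 in the crypt and 3.42 in the middle villus. Its window lies on the minus strand of chr13:42404303-42404602, printed 5′ to 3′ with 2 overlapping E2F sites, 1 on each strand, in capitals:
Mcm6: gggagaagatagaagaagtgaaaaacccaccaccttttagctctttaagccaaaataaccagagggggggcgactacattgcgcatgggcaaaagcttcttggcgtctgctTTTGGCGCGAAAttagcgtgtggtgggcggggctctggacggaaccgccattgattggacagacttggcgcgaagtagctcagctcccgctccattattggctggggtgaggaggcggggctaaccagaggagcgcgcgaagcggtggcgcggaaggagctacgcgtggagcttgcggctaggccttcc

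Mitochondrial genes were lower in most cases. Of 64 genes of the respiratory chain and ATP synthase 50 were lower and 0 higher (median -2.16), and 44 of the 64 belong to the brightest 25% of genes. Coq7, which hydroxylates the precursor of ubiquinone, read 5.19 at the top villus and 10.02 in the crypt, with the middle villus at 8.42. Ndufb4 and Ndufs8, subunits of complex I, read 9.03 and 8.34 at the top villus, against 13.20 and 12.20 in the crypt. The membrane ring subunit Atp5mc3 of ATP synthase differed by -3.75. The widest bounds of the whole comparison on the lower side were also mitochondrial. Cox6c, a subunit of cytochrome oxidase, read 4.90 at the villus top, against 14.01 in the crypt, and 10.77 at mid-villus, at least 465-fold lower. Atp5f1e, the epsilon subunit of ATP synthase, read 3.10 in the top villus sample and 12.96 in the crypt sample (middle villus, 1.64), at least 225-fold lower. Micos10, a protein of the junctions that hold the cristae, read 4.26 at the top villus, against 13.04 in the crypt and 7.88 in the middle villus, at least 238-fold lower.

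The mitochondrial ribosome and its factors were lower in 37 of 40 genes and higher in 0, with a median of -2.76. Mrpl28, Mrpl15 and Mrpl18, proteins of its large subunit, differed by -4.40, -4.34 and -4.30, and Tsfm, its elongation factor, by -4.20. Of these genes 13 lie in the brightest 25% of genes. Import and carrier genes were lower in 33 of 49 cases and higher in 1 (median -2.23). Among the 49 values 15 are bounds, and the median was -1.41 over the genes measured in both parts. Timm21 of the inner membrane translocase differed by -4.62, the prohibitin Phb2 by -4.35 and the mitochondrial DNA-binding protein Ssbp1 by -3.94. Yme1l1, a protease of the inner membrane, was the gene that was higher, at least 2.25-fold. Timm8a1, a small chaperone of import, was at least 54.8-fold lower. Atad3a, a membrane ATPase of mitochondria that is on none of the lists, read 6.98 at the top villus and 12.05 in the crypt, with the middle villus at 9.55.

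The citric acid cycle was less uniform, with 12 of 23 genes lower and 3 higher. Aco1, Mdh1 and Idh3a were lower at -3.12, -2.96 and -2.93. Citrate synthase (Cs) read 13.70 at the villus top, against 11.24 in the crypt, and 12.65 at mid-villus, and pyruvate carboxylase (Pc) and malic enzyme (Me1) were higher by 2.17 and 2.07. Aco1 and Mdh1 are cytosolic forms. Glycolysis and its branches were divided, with 6 of 28 genes higher and 9 lower. The aldolase Aldoa, the lactate dehydrogenase Ldha and the glycerol-3-phosphate dehydrogenase Gpd1 were higher by 2.38, 2.13 and 2.87, while Pgam1 and Pkm were lower at -2.58 and -1.65.

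**Figure D2:**
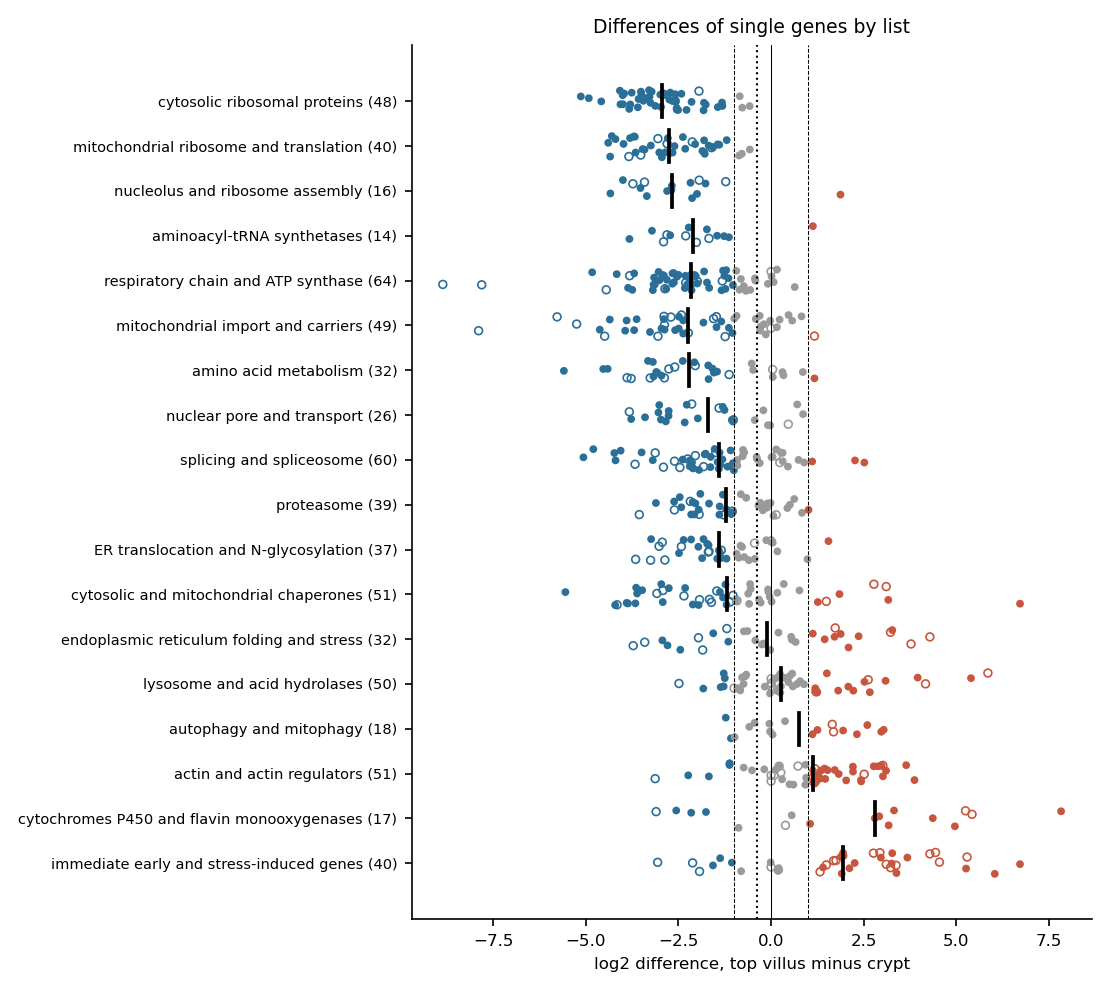
Log2 difference, top villus minus crypt, of each gene in 18 lists, with the number of genes in brackets. Filled points were measured in both parts and open points are bounds; red, higher; blue, lower; grey, within 2-fold; black bars, list medians; dotted line, the median of all genes at -0.39. The lists of ribosomes, respiratory chain and nuclear pore hold no gene past 2-fold on the higher side.

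Amino acid metabolism was lower as a group, in 24 of 32 genes, with 1 higher and a median of -2.23. Over the genes measured in both parts the median was -1.70, and 9 of the 32 values are bounds. Ddc, the decarboxylase that makes dopamine and serotonin, had 2 probes and read 6.31 in the top villus sample and 11.91 in the crypt sample (middle villus, 8.86). Hnmt, which inactivates histamine by methylation, differed by -4.53. Otc, which makes citrulline in the gut, and Glud1, glutamate dehydrogenase, differed by -3.32 and -3.19. The alanine transaminase Gpt was higher, at 1.17. In polyamine, one-carbon and nucleotide synthesis 19 of 33 genes were lower and 6 higher. The nucleoside kinases Uck2, Nme1 and Nme2 were lower at -4.11, -3.94 and -3.79, and Dut, which keeps uracil out of DNA, at -3.50. Ggh, which trims the glutamate tail of folates and had 2 probes, read 13.66 at the top villus, against 7.66 in the crypt and 9.73 in the middle villus. Sat1, which starts polyamine breakdown, was higher by 2.21.

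Redox and detoxifying enzymes parted by family. Cytochromes P450 and flavin monooxygenases were higher in 10 of 17 cases and lower in 4, with a median of 2.80. Cyp3a9 read 15.47 at the top villus and 7.64 in the crypt, with the middle villus at 11.27, and Cyp4b1 was at least 42.9-fold higher. Por, the reductase that feeds electrons to these enzymes, read 12.74 at the villus top, against 9.42 in the crypt, and 10.10 at mid-villus. Glutathione, thioredoxin and antioxidant genes were lower in 25 of 44 cases and higher in 6, with a median of -1.33. Of the 44 values 15 are bounds, and over the genes measured in both parts the median was -0.95. Gsta3, a glutathione transferase, read 6.89 in the top villus sample and 13.41 in the crypt sample (middle villus, 12.60), and its relative Gsta2 was at least 90.5-fold lower. Prdx1, a peroxiredoxin, read 8.88 at the top villus, against 13.16 in the crypt and 11.92 in the middle villus, whereas Prdx5 was higher by 2.38. Sesn2, a stress-induced regulator of redox balance, was at least 13.4-fold higher. Probes of close relatives within these families may share sequence, and whether they do was not tested.

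Aldehyde, alcohol and aldo-keto enzymes were lower in 14 of 22 cases and higher in 1, with a median of -1.85. The carbonyl reductase Cbr1 read 6.38 at the top villus and 10.88 in the crypt, with the middle villus at 7.44, and Akr1c13, Akr1c19 and Akr7a2 differed by -4.08, -3.62 and -3.54. The retinol dehydrogenase Rdh7 was the gene that was higher, at 14.43 at the villus top, against 8.04 in the crypt, and 12.27 at mid-villus. Heme and iron-sulfur genes were lower in 12 of 18 cases. Bola3, which helps to place iron-sulfur clusters in mitochondria, read 5.29 in the top villus sample and 10.37 in the crypt sample (middle villus, 8.89). Alas1, the first enzyme of heme synthesis, was higher by 1.91, while Alad, the next enzyme, was lower at -2.68. Hmox1, which degrades heme, was at least 9.35-fold higher. Conjugating enzymes went both ways, with 4 of 14 higher and 7 lower. Sult1b1 and Papss1, a sulfotransferase and an enzyme that supplies its sulfate, were higher by 2.28 and 2.15, whereas Papss2, which makes the same donor, and the deacetylase Aadac were lower at -3.78 and -4.68.

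Lipid genes outside fat absorption differed by list. Among 68 genes of phospholipid, sphingolipid and phosphoinositide metabolism 19 were higher and 15 lower. Asah2, a ceramidase known from the brush border, read 12.13 at the top villus, against 7.41 in the crypt and 10.72 in the middle villus, and Lpcat3, a phospholipid remodelling enzyme, differed by 1.95. Agpat4 was lower at -3.50. In ketone body and peroxisomal metabolism 5 of 26 genes were higher and 10 lower, with the racemase Amacr at -4.51 and the peroxisome proliferation gene Pex11g at 2.61. For comparison, 19 of 25 fat absorption genes were higher and 3 lower. The higher ones included Apoa4, an apolipoprotein of chylomicrons, with a 169-fold and Fabp2, an intestinal fatty acid carrier, with a 67.1-fold difference. Of 18 peptidase and peptide or amino acid transporter genes 10 were higher and 3 lower. Sugar digestion and transport genes went the other way, with 5 of 9 lower and 3 higher and a median of -2.23. The hexose transporters Slc2a2 and Slc2a5 differed by -3.78 and -3.15.

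Protein folding genes lay far out on both sides. Among 51 cytosolic and mitochondrial chaperones 7 were higher and 28 lower (median -1.20). Dim levels made 14 of the 51 values bounds, and the median was -0.95 over the genes measured in both parts. The mitochondrial chaperonin Hspe1 read 7.58 at the top villus and 13.13 in the crypt, with the middle villus at 9.30, and its partner Hspd1 read 7.25 at the villus top, against 11.11 in the crypt, and 9.06 at mid-villus. Hspa9, the mitochondrial Hsp70, read 9.06 in the top villus sample and 12.96 in the crypt sample (middle villus, 10.63), and Tcp1, a subunit of the cytosolic chaperonin, read 7.70 at the top villus, against 11.91 in the crypt and 9.97 in the middle villus. The higher genes were fewer. Zfand2a, an arsenite-inducible partner of the proteasome, read 14.32 at the top villus and 7.60 in the crypt, with the middle villus at 8.17, a 105-fold difference between top villus and crypt. Bag3, a co-chaperone of Hsp70 in selective autophagy, read 11.38 at the villus top, against 8.21 in the crypt, and 8.58 at mid-villus. The inducible Hsp70 gene Hspa1a read 9.16 in the top villus sample and 5.01 in the crypt sample (middle villus, 1.72), at least 8.63-fold higher.

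The heat shock element (GAA, TTC and GAA in this order with any 2 bases between neighbours, on either strand) was sought in the same windows, since heat shock factors bind it in chaperone promoters. It was found in 4 of 23 lower chaperones with a window, 17.4%, in 0 of 6 higher ones, in 1 of 15 within 2-fold and in 0.736% of all windows. Only exact matches to these letters inside the window counted. Variant or more distant elements would be missed, so a gene without a match may still have such an element. The 4 were Hspe1, Hspd1, Hspa8 and Hsph1, which differed by -5.55, -3.86, -1.96 and, for Hsph1, at least 3.81-fold lower, and the gene within 2-fold was Dnaja1 (-0.07). Hspe1 and Hspd1 lie head to head, so their windows share 211 bases and the same pair of elements and do not count as independent. The Hspe1 window, on the plus strand of chr9:64084077-64084376, is shown because both chaperonin genes had this stretch in common and were both lower, with the overlapping elements in capitals:
Hspe1: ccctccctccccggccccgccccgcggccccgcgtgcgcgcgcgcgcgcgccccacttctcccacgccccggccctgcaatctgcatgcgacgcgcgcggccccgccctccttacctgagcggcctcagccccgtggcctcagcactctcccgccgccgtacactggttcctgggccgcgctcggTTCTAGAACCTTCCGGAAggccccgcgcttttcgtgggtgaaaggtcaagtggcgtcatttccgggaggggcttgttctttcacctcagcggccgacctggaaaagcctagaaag

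In the endoplasmic reticulum, 11 of 32 folding and stress genes were higher at the top villus and 10 were lower. The higher genes included Ddit3, the stress transcription factor CHOP, at 11.86 at the top villus, against 8.59 in the crypt and 8.85 in the middle villus. Herpud1, a part of the machinery that removes misfolded proteins, read 9.74 at the top villus and 7.38 in the crypt, with the middle villus at 10.24. Trib3, a pseudokinase induced with Ddit3, was at least 19.5-fold higher, and the stress kinase Eif2ak3 (PERK) at least 9.35-fold. The lower genes included luminal chaperones. Hspa5 (BiP), the main one, read 10.40 at the villus top, against 11.96 in the crypt, and 10.75 at mid-villus. The disulfide isomerase Pdia4 read 8.09 in the top villus sample and 10.89 in the crypt sample (middle villus, 9.60), and Hyou1, a large Hsp70 relative, read 7.68 at the top villus, against 10.13 in the crypt and 10.29 in the middle villus. The disulfide isomerase P4hb went against this pattern, at 14.53 at the top villus and 12.44 in the crypt, with the middle villus at 13.72.

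The ER stress response element (CCAAT and CCACG with any 9 bases between them, on either strand) is the sequence through which ATF6 is known to act on chaperone genes in mammals. It was present in 5 of 9 lower genes of this list with a window, 55.6%, in 1 of 11 higher ones, 9.09%, in 1 of 10 within 2-fold and in 21 of all 27457 windows, 0.0765%. Among the higher chaperones outside the endoplasmic reticulum, Zfand2a held 1. The elements are shown because they mark genes that lay on both sides of the comparison, 5′ to 3′ on the strand that reads CCAAT first, with the fixed letters in capitals:
Hspa5 (chr3:38452973-38452991, plus strand): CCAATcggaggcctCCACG
Creld2 (chr7:121789239-121789257, minus strand): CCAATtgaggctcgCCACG
Hsp90b1 (chr7:23012451-23012469, minus strand): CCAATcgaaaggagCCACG
Hsp90b1 (chr7:23012347-23012365, plus strand): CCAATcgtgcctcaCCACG
Derl3 (chr20:12766601-12766619, plus strand): CCAATaaggaagtcCCACG
Canx (chr10:35158069-35158087, minus strand): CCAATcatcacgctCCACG
Calr (chr19:40213135-40213153, minus strand): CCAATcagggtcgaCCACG
Dnajc3 (chr15:102432534-102432552, plus strand): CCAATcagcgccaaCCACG
Hspa5 was measured in both parts, whereas Creld2, Hsp90b1, Derl3 and Canx were dim at the top villus and were at least 13.2-fold, 10.6-fold, 3.60-fold and 2.29-fold lower. Calr, the calcium-binding chaperone calreticulin, was higher by 1.45, and Dnajc3 lay within 2-fold at -0.73. The element of Zfand2a stands in a window on the plus strand of chr12:20275200-20275499, printed with the element, which reads CCAAT first on the other strand, in capitals:
Zfand2a: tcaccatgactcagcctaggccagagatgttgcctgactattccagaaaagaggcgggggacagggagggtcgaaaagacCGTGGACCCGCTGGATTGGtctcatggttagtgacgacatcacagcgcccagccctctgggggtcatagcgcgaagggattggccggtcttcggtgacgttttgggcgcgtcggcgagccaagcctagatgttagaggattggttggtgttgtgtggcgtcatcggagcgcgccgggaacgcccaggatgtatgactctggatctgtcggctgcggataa

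**Figure D3:**
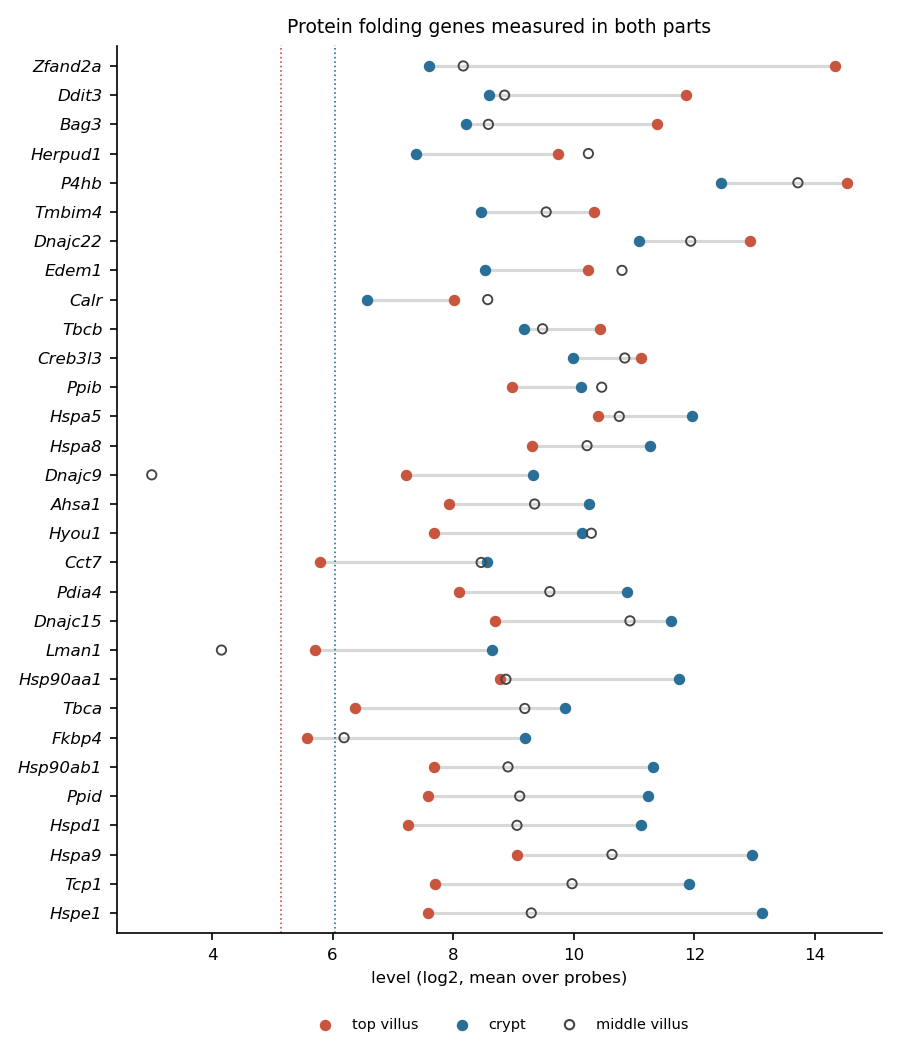
Levels (log2) of 30 folding genes measured in both parts and past 2-fold, from the lists of chaperones and of endoplasmic reticulum folding, ordered by difference: all on the higher side, and on the lower side all of the reticulum and the 14 chaperones with the largest differences. Red, top villus; blue, crypt; open circles, middle villus; dotted lines, the dim level of the top villus (red) and of the crypt (blue). Zfand2a, Ddit3 and Bag3 read close to the crypt in the middle villus, at 8.17, 8.85 and 8.58.

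Genes of the secretory pathway differed by station. Of 37 genes of translocation into the endoplasmic reticulum and N-glycosylation 23 were lower and 1 higher (median -1.41), with the oligosaccharyltransferase subunits Ddost and Ostc at -3.24 and -2.36. Coats, Arf GTPases and endocytic adaptors held 26 higher and 10 lower genes of 73. The small GTPase Arf5 read 14.81 at the villus top, against 11.46 in the crypt, and 14.03 at mid-villus, and dynamin 2 (Dnm2), which pinches off vesicles, read 13.74 in the top villus sample and 10.88 in the crypt sample (middle villus, 11.42). Among SNAREs and fusion factors 9 of 22 were higher and 4 lower. Vamp8, a vesicle SNARE of late endosomes and secretion, differed by 2.61, and Stxbp3, of the same list, by 2.11. Rab genes and regulators held 9 higher and 4 lower of 32. Rab30 of the Golgi was at least 96.0-fold higher, with 12.63 at the top villus, against 0.91 in the crypt and 8.47 in the middle villus, while Rab25 of recycling endosomes differed by -1.81 and Rab7a of late endosomes by -1.48.

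Golgi glycosyltransferases included 1 of the largest differences on the table. St3gal4, which caps glycans with sialic acid, read 13.50 at the top villus and 7.25 in the crypt, with the middle villus at 9.14, a 76.0-fold difference. St3gal5, which makes the ganglioside GM3, differed by 3.03. As a list, 8 of 40 were higher and 13 lower. The fucosyltransferase Fut4, the sulfate donor carrier Slc35b2 and Gne, which starts sialic acid synthesis, were lower at -3.14, -2.74 and -2.49.

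Degradation also parted by route. The proteasome was lower in 23 of 39 genes and higher in 1, with a median of -1.20. Psmb2, a subunit of the catalytic core, read 8.01 at the villus top, against 11.12 in the crypt, and 9.83 at mid-villus, and Psmd6, of the regulatory cap, read 9.06 in the top villus sample and 11.68 in the crypt sample (middle villus, 10.44). Psme1, of the interferon-induced activator, was higher at 1.01. Lysosomal genes were higher in 16 of 50 cases and lower in 6, with 28 within 2-fold and a median of 0.26. Their higher share of 32% was close to the 31.6% in the brightest group of all genes by mean level. To that group 19 of the 50 belong. The lower share of 12% lay under the 32.5% of the same group. Lipa, the acid lipase, read 14.49 at the top villus, against 9.09 in the crypt and 11.12 in the middle villus, and cathepsin B (Ctsb) read 14.87 at the top villus and 10.91 in the crypt, with the middle villus at 13.34. Lgmn, the asparaginyl protease of lysosomes, was at least 57.8-fold higher, with 11.90 at the villus top, against 4.71 in the crypt, and 7.07 at mid-villus. Autophagy genes were higher in 9 of 18 cases and lower in 2. Gabarapl2 and Gabarap, which coat the growing autophagosome, differed by 3.04 and 2.60, and Vmp1, needed to start it, by 2.97. The autophagy genes that were lower, Atg101 and Atg16l1, lay at -1.22 and -1.08.

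Ubiquitin and related conjugation genes lay close to the background on the higher side, with 23 of 93 higher and 27 lower. Ubd, a ubiquitin-like protein induced by cytokines, read 12.67 in the top villus sample and 8.03 in the crypt sample (middle villus, 12.01), and the ligase Rnf128 differed by 3.06. Uchl5, a deubiquitinase of the proteasome, was lower at -2.99. Proteases and inhibitors outside the brush border were higher in 18 of 39 cases and lower in 8. The antiprotease genes Wfdc21 and Slpi read 10.99 and 11.21 at the top villus, against 6.47 and 7.73 in the crypt. Serpinb6a, a serpin, and Prss8, a membrane-anchored protease of tight epithelia, differed by 3.30 and 3.09. Casp1, the protease that processes interleukin-1, was lower at -3.44.

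**Figure D4:**
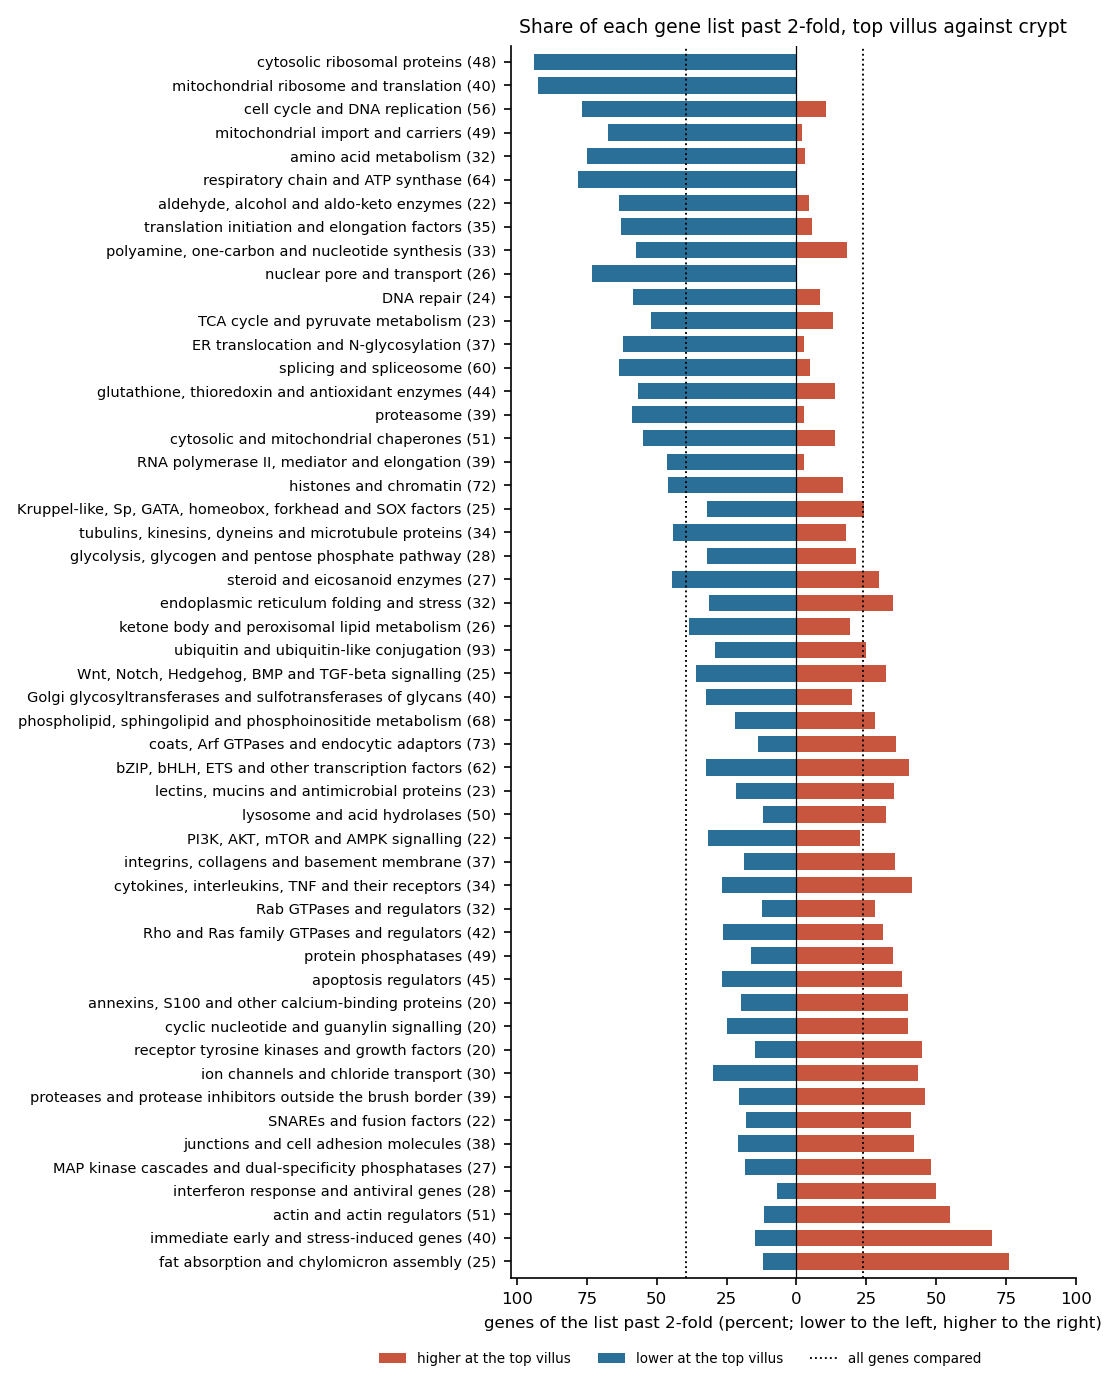
Share of genes past 2-fold in the 52 lists with 20 or more genes compared (number in brackets), ordered by median difference. Red bars to the right, higher at the top villus; blue bars to the left, lower; dotted lines, the shares over all genes compared, 23.9% and 39.5%. Ribosomal lists head the lower side and the lists of actin, immediate early and fat absorption genes the higher side.

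Among genes of cell shape, actin and myosin genes were higher in larger shares than all genes. Of 51 actin genes and regulators 28 were higher and 6 lower (median 1.14). Eps8l2, a relative of a protein that caps filaments in microvilli, read 13.74 at the top villus, against 9.87 in the crypt and 12.05 in the middle villus. Ablim1, an actin-binding protein, read 12.75 at the top villus and 9.10 in the crypt, with the middle villus at 9.84, and Vasp, which promotes filament growth, read 14.26 at the villus top, against 11.15 in the crypt, and 12.43 at mid-villus. Tmsb10, which binds actin monomers, differed by 3.02. The lower genes included Cnn3 and Limk2, at -2.24 and -1.68. Of 10 myosin genes 5 were higher and 0 were lower. Bounds made up 3 of the 10, and the median of 0.92 was 0.12 over the myosin genes measured in both parts. Myo5b, which carries recycling vesicles to the apical membrane and is mutated in human microvillus inclusion disease, differed by 2.12. Plectin (Plec), which links filament systems, read 11.30 in the top villus sample and 7.18 in the crypt sample (middle villus, 8.38), and the keratins Krt20 and Krt19 stood at 4.07 and -3.12.

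Microtubule genes lay near the background, with 15 of 34 lower and 6 higher. Dynlrb1, a light chain of dynein, read 6.05 at the top villus, against 10.75 in the crypt and 6.69 in the middle villus, and the tubulin-folding cofactor Tbca read 6.38 at the top villus and 9.86 in the crypt, with the middle villus at 9.19. Against these, Pafah1b1 (Lis1) and Ndel1, partners in regulating dynein, were higher by 3.10 and 1.74. Contact genes were higher in 16 of 38 cases and lower in 8. F11r, an adhesion molecule of tight junctions, Cldn7 and Tjp1 differed by 3.30, 3.03 and 2.53, while Gjb2, which forms gap junctions, was at least 49.6-fold lower. Matrix and integrin genes were higher in 13 of 37 cases and lower in 7. Itgb6, an integrin subunit that activates TGF-beta, read 11.36 at the villus top, against 7.02 in the crypt, and 6.82 at mid-villus, and Lama5, a laminin of the villus basement membrane, read 10.34 in the top villus sample and 6.92 in the crypt sample (middle villus, 8.25). Among calcium-binding proteins 8 of 20 were higher and 4 lower. S100a6 and the annexin partner S100a10 differed by 4.65 and 4.61.

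Immediate early and stress-induced genes were higher in 28 of 40 cases and lower in 6, with a median of 1.95. Errfi1, a feedback inhibitor of the EGF receptor, read 12.75 at the top villus, against 6.71 in the crypt and 10.27 in the middle villus, a 65.7-fold difference. Jun, a subunit of AP-1, read 12.01 at the top villus and 6.75 in the crypt, with the middle villus at 8.46, and its partner Fos read 11.15 at the villus top, against 7.47 in the crypt, and 9.68 at mid-villus. Areg, an EGF receptor ligand, was at least 37.3-fold higher, with 11.27 in the top villus sample and -1.93 in the crypt sample (middle villus, 7.43), and Sgk1, a kinase induced by salt and steroids, at least 39.1-fold, with 11.34 at the top villus, against 5.98 in the crypt and 10.18 in the middle villus. Ier2, the metallothionein Mt1 and Tsc22d3, a glucocorticoid-induced gene, were lower at -1.57, -1.37 and -1.06. The sources used here give no time between death and freezing, and its part in these values was not tested.

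Signalling genes were higher more often than lower in most of the lists. MAP kinase genes were higher in 13 of 27 cases and lower in 5. Tab2, an adaptor of the kinase TAK1, read 12.08 at the top villus and 8.28 in the crypt, with the middle villus at 9.90, and Map2k1 (MEK1) read 12.46 at the villus top, against 9.16 in the crypt, and 10.54 at mid-villus. The exchange factor Sos2 was lower at -3.65. In cyclic nucleotide and guanylin signalling 8 of 20 were higher and 5 lower. The hormones guanylin (Guca2a) and uroguanylin (Guca2b) and their receptor Gucy2c, which drive salt and water secretion, were higher together by 2.08, 2.41 and 2.78. Prkg2, the kinase that acts after cyclic GMP, differed by 1.08. The kinase Prkcd differed by 4.47. In growth control, Mtor and Akt1 were lower at -2.67 and -1.59, and Ddit4, an inhibitor of mTOR induced by stress, was higher at 1.40. That list held 5 higher and 7 lower genes of 22.

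Morphogen signalling was divided. Of 25 genes 8 were higher and 9 lower, with Smad7, an inhibitor of TGF-beta signalling, at 3.21. The Notch ligand Jag1 and the hedgehog ligand Ihh were lower at -2.80 and -1.73, and Bmp4, a villus signal that restrains crypts, was higher at 1.62. Growth factor and receptor kinase genes were higher in 9 of 20 cases and lower in 3. Tyro3 differed by 3.22, and Igf1 and its binding protein Igfbp4 were lower at -1.64 and -1.88.

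Among 30 ion channel and chloride transport genes 13 were higher and 9 lower. Clca4 and Clca1, related regulators of chloride conductance, lay on opposite sides. Clca4 read 14.61 in the top villus sample and 7.08 in the crypt sample (middle villus, 11.86), a 186-fold difference, while Clca1 was at least 57.4-fold lower, with 3.73 at the top villus, against 10.99 in the crypt and 10.38 in the middle villus. Aqp7, a channel for water and glycerol, read 13.65 at the top villus and 5.82 in the crypt, with the middle villus at 8.80, at least 194-fold higher, and Aqp3, of the same kind, read 12.66 at the villus top, against 6.80 in the crypt, and 10.61 at mid-villus. Lrrc8b and Lrrc8d, subunits of the volume-regulated anion channel, differed by 2.29 and 2.18. Several potassium channel genes were lower. Kcne3, a beta subunit that partners Kcnq1, was at least 38.9-fold lower, Kcnn4, activated by calcium, at least 27.9-fold and Kcnq1 itself at least 8.82-fold. All 3 were dim at the top villus, whose levels were 2.14, 4.70 and 2.71, against 10.43, 9.95 and 8.29 in the crypt. These channels recycle potassium during chloride secretion. Kcnk6 was lower too, at -1.06, and Kcnj13 at least 5.66-fold, whereas Kcnj3 lay within 2-fold at 0.71.

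Apoptosis regulators held 17 higher and 12 lower genes of 45. Ripk3, a kinase of necroptosis, read 13.37 in the top villus sample and 9.47 in the crypt sample (middle villus, 8.92), and Cideb, known for its part in lipid droplets and lipoprotein assembly as well as death, read 13.95 at the top villus, against 10.60 in the crypt and 11.65 in the middle villus. The TNF receptor Tnfrsf1a and its adaptor Tradd differed by 2.91 and 2.51. Dffa, the inhibitor of the DNase that cuts apoptotic DNA, was lower at -2.39. Interferon and antiviral genes were higher in 14 of 28 cases and lower in 2. Bounds made up 10 of the 28, and the median of 0.99 was 0.49 over those measured in both parts. Irf1 differed by 2.21, the interferon gamma receptor chain Ifngr2 by 2.08 and the exonuclease Isg20 by 1.99. Samd9, linked to antiviral defence, was at least 83.6-fold higher, with 12.43 at the top villus and 5.53 in the crypt, with the middle villus at 8.48.

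Antigen processing genes were divided, with 5 of 12 higher and 3 lower. B2m, which encodes the invariant partner of class I heavy chains, read 15.59 at the villus top, against 11.03 in the crypt, and 14.49 at mid-villus, the peptide-loading gene Tapbp differed by 1.53 and the peptide transporter Tap2 was at least 3.94-fold higher, while the immunoproteasome subunit Psmb9 was lower at -2.12. In secretions and surface defence 8 of 23 genes were higher and 5 lower. Lgals3, a galactose-binding lectin, read 15.60 in the top villus sample and 8.56 in the crypt sample (middle villus, 12.17), and Prap1, a secreted proline-rich protein, read 15.26 at the top villus, against 10.12 in the crypt and 14.61 in the middle villus. Dmbt1, a scavenger protein that binds bacteria and mucus, read 6.47 at the top villus and 13.20 in the crypt, with the middle villus at 10.89, the second most negative difference among genes measured in both parts after Jchain. Of 14 complement, coagulation and acute phase genes 2 were higher and 4 lower, with C4b at -3.77, whereas Cd55, which shields cells from complement, was higher at 3.81. Cxcl12, a chemokine, was lower at -2.95 and Cx3cl1 was higher at 1.96.

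Transcription factors were divided. Among 62 bZIP, bHLH, ETS and other factors 25 were higher and 20 lower. Max, the partner of Myc, read 12.80 at the villus top, against 7.85 in the crypt, and 9.91 at mid-villus, and Jund differed by 2.96. The cold-shock domain proteins Ybx3 and Ybx1, which bind nucleic acids, were lower at -4.38 and -2.34, and Nfe2l2 (NRF2), the regulator of antioxidant genes, at -2.32. Of 18 nuclear receptors and coregulators 5 were higher and 5 lower. Nr3c2, the mineralocorticoid receptor, read 9.51 in the top villus sample and 6.14 in the crypt sample (middle villus, 7.56), and Pparg and Rara were at least 4.86-fold and 5.90-fold higher. The bile acid receptor Nr1h4 was at least 5.75-fold lower. In the Kruppel-like, GATA, homeobox, forkhead and SOX families 6 of 25 were higher and 8 lower, with Klf4, of differentiated cells, at 3.26 and Klf5, of crypt cells, at least 5.04-fold lower.

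**Figure D5:**
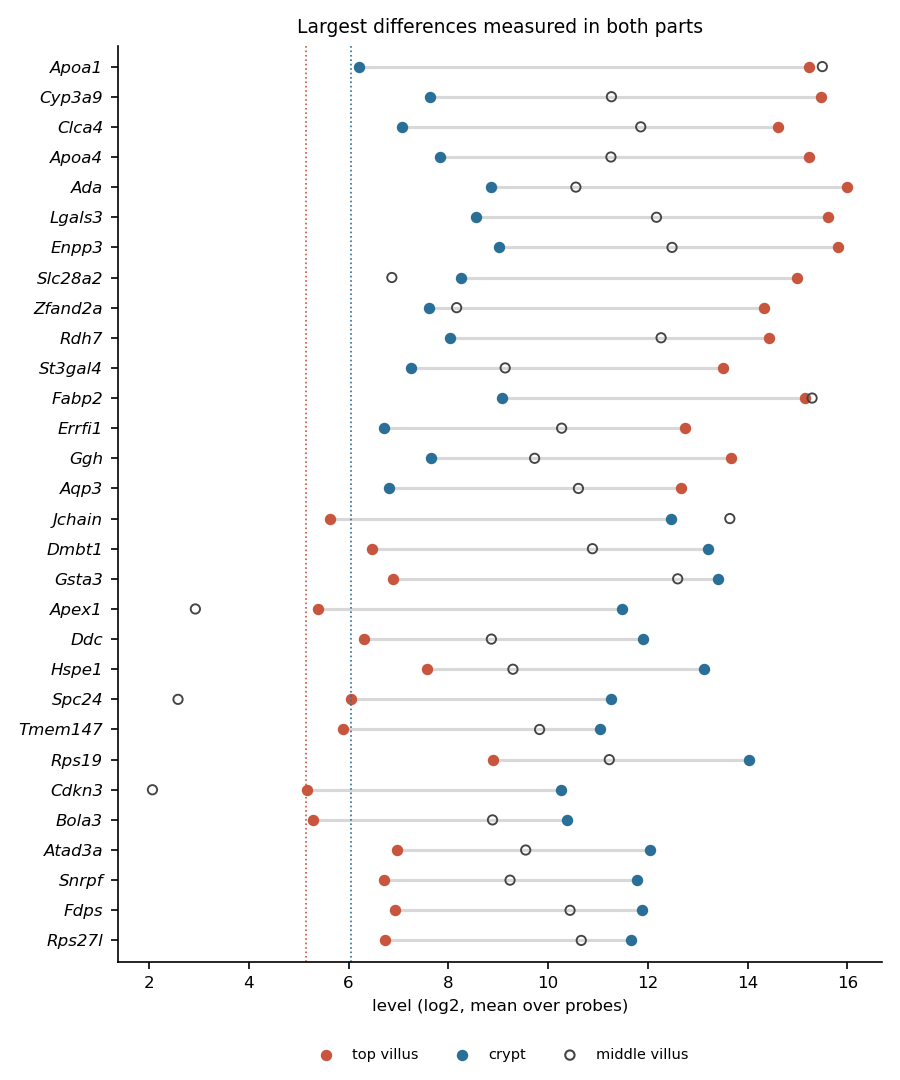
Levels (log2) of the 15 genes with the largest positive and the 15 with the largest negative difference among genes measured in both parts. Red, top villus; blue, crypt; open circles, middle villus; dotted lines, the dim level of the top villus (red) and of the crypt (blue). Slc28a2 read lower in the middle villus than in either part, at 6.87, and Jchain read higher there than in either, at 13.64.

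The middle villus did not always lie between the parts. Apoa1 read 15.24 at the top villus, against 6.20 in the crypt and 15.50 in the middle villus, so that the middle villus was as high as the top. Zfand2a, by contrast, was near the crypt level there. The nucleoside transporter gene Slc28a2 read 14.99 at the top villus and 8.26 in the crypt, with the middle villus at 6.87, with its lowest value in the middle. Jchain read 5.62 at the villus top, against 12.46 in the crypt, and 13.64 at mid-villus, with its highest value in the middle, and the kinetochore gene Spc24 and the repair gene Apex1 were dim there at 2.58 and 2.93. Ada, the adenosine deaminase, had the highest value of the top villus column, 15.997, against 8.86 in the crypt, and whether its probe was saturated was not tested. Enpp3, a nucleotidase of the cell surface, read 15.81 in the top villus sample and 9.01 in the crypt sample (middle villus, 12.48). Other far-out genes stand on none of the lists. Nt5e, which makes adenosine outside the cell, was at least 117-fold higher, with 12.92 at the top villus, against 3.36 in the crypt and 6.08 in the middle villus, and Sectm1b at least 53.5-fold higher. Tmem147, a membrane protein of the endoplasmic reticulum, read 5.89 at the top villus and 11.05 in the crypt, with the middle villus at 9.83, and Fdps, an enzyme of isoprenoid and cholesterol synthesis, read 6.93 at the villus top, against 11.87 in the crypt, and 10.44 at mid-villus. Selenbp1, a selenium-binding protein, was at least 76.5-fold lower and Fgfbp1, which releases fibroblast growth factors from the matrix, at least 66.3-fold lower. Both villus samples are set against the same crypt sample, so a high or low crypt value enters both differences.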

How the data were processed

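Gene expression was measured on microarrays in 3 samples, 1 each of top villus, middle villus and crypt, of which the top villus and crypt were compared. The deposited value table holds log2 values of 6653 probes, a scale read from the values. Their normalization and channel are not given in the sources used here, although the labels name Cy3 and Cy5. The 3 scanner files (ScanArray Express 2.00, LOWESS, per the file headers) hold 22575 spots each without names and were not used. Of the probes, 4820 carry 1 gene symbol in the platform annotation, and 4806 were matched through their identifiers to the RefSeq table of the GRCr8 assembly.

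Values were compared without further scaling, with Python 3.11.15, numpy 2.4.6 and pandas 2.3.3. Probes at or above the lowest 25% of a column in 1 or both parts entered, lower values were set to that level, bounds were not allowed to pass 0, and probes were averaged per gene. Precision is limited by the number of arrays. The steps were tested on simulated data, made from the crypt column with little added noise and with changes planted in brighter genes of 1 probe. That test shows that the steps return planted changes and does not cover false calls at the noise of real arrays.

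The members, the 86 gene lists and the motifs were chosen with earlier results of these data known. Entries that matched a list by symbol but have another function were taken out. Named genes were drawn from the 15 largest differences of each sign measured in both parts, the 8 largest bounds of each sign, up to 4 of each sign per list (genes measured in both parts first), members within 2-fold where a list has at most 3, and genes whose probes disagree. Genes named outside this rule, after their values were seen, are Areg, Canx, Cdkn1a, Cdkn1c, Cdt1, Creld2, Dnaja1, Dnajc3, Eif2ak3, Gins1, Gjb2, Glud1, Gmnn, Hsp90b1, Hspa1a, Hspa8, Hsph1, Jund, Kcnj13, Kcnj3, Kcnn4, Kcnq1, Klf5, Lpcat3, Lrrc8d, Mcm2, Mcm5, Pparg, Prkg2, Rfc3, Tap2, Tjp1 and Trib3. Alternatives were other scalings, filters, probe rules and fold limits.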

Additional observations from a re-analysis of the deposited data

How the results depend on the processing

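Counts of 939 higher and 1554 lower genes were 1082 and 1373 after median scaling, 1186 and 1353 after quantile normalization and 993 and 1457 after scaling to the 75th percentile. The median of all genes, -0.39, was -0.15, -0.19 and -0.27 under these scalings. Restricting to probes measured in both parts gave 666 higher and 997 lower genes, since fewer genes are compared, and the 4-fold limit gave 477 and 866. Without a detection filter they were 1200 and 1849, at 1.5-fold 1187 and 1847, and with a common floor of log2 6 they were 946 and 1342. Of 32 lists with a median past 2-fold, all 254 medians under the 8 alternatives to scaling, filter and probe rule kept their sign. Median and 75th percentile scaling shift nearly all differences by the same small amount, so medians past 2-fold could not change sign under them. Among 524 genes, namely those named by the rule on size and the lists' largest members, 1 past 2-fold took the opposite sign: Snx9, a sorting nexin, was at -1.77 as the mean of its probes and 0.13 by its brightest probe, and the cause was not tested. Another 109 values of 85 genes shifted by more than the probe SD of 0.91, 108 of them to a larger size and 7 of them to the other sign (Brd1, Gpbp1, Msl2 and Stard4, whose probes disagree and whose reported values lay within 0.44 of 0), with 39 of the 109 by quantile normalization and 56 with the filter removed. Medians of 6 lists shifted as much. Without a detection filter cell cycle genes were at -4.50 (reported value -2.45), proliferating markers at -5.50 (-3.63), B and plasma cell markers at -7.13 (-2.03) and T and NK cell markers at 4.24 (1.76). G protein genes changed sign, at -0.10 without a filter and -0.18 over probes measured in both parts (0.82), as did 3 circadian clock genes at -1.56 without a filter (0.90). No paired analysis was possible because each part has 1 sample, and no replicate could be left out. Dim values limit 1197 of the 3932 differences to bounds.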

Other observations

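Hormone and transmitter genes of the enteroendocrine lineage were higher or flat at the top villus, with 3 of 8 markers higher and 0 lower. Tph1, which starts serotonin synthesis in enterochromaffin cells, read 8.08 in the top villus sample and 6.22 in the crypt sample (middle villus, 6.62), and Ghrl, which encodes ghrelin, read 10.11 at the top villus, against 8.29 in the crypt and 9.28 in the middle villus. Sct, which encodes secretin, was at least 5.88-fold higher. Ddc, which acts after Tph1 in serotonin synthesis but is also expressed by other epithelial cells, was lower. Protein phosphatase genes were higher in 17 of 49 cases and lower in 8. Bounds made up 16 of the 49, and the median of 0.45 was 0.01 over the phosphatase genes measured in both parts. The catalytic subunits of phosphatase 2A lay apart, with Ppp2ca higher by 3.88 and Ppp2cb lower at -2.35. Among 27 steroid and eicosanoid enzymes 8 were higher and 12 lower. The dehydrogenase Hsd17b11, found on lipid droplets, differed by 4.86, whereas the mitochondrial Hsd17b10 differed by -3.95 and the glucocorticoid-inactivating Hsd11b2 was at least 9.77-fold lower. Among 11 G protein, RGS and receptor kinase genes 5 were higher and 1 lower, with Gnai3 at 2.35. Bounds made up 4 of the 11, and the list's median of 0.82 was -0.26 over the genes measured in both parts. Chemokine genes went both ways, with 5 of 16 higher and 4 lower. Ccl20, which draws immune cells to the epithelium, was at least 4.67-fold higher, and Ccl28, which draws plasma cells, was at least 9.76-fold lower.

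Genes on none of the lists numbered 1774 of those compared, of which 410 were higher and 695 lower (median -0.42). The 1833 probes with no gene name in the platform annotation gave 1579 that could be compared. Of these, 414 (26.2%) were higher and 535 (33.9%) lower at the top villus (median -0.01).

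Of 339 genes with several probes compared, 6 had probes past 2-fold in opposite directions, namely Adss2, Brd1, Gpbp1, Mapk1ip1, Msl2 and Stard4. Stard4, which carries cholesterol, had 1 probe at 9.51 at the top villus and 8.30 in the crypt, and 1 at 4.35, which is dim, at the top villus and 6.67 in the crypt.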
